A study of Mus musculus with 8 samples.

Results

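The cytochrome P450 genes of families 1, 2 and 3 were described in regenerating mouse liver, from 8 bulk RNA libraries. Members were the gene symbols of the pattern Cyp1, Cyp2 or Cyp3 with a subfamily letter and a number, without pseudogene symbols (ending in -ps), with 10 or more normalized reads in 3 libraries or more. Of 53 such symbols 43 met this filter, among 13704 genes that met it in a table of 19055 genes. The 43 members belong to 11 subfamilies: 13 are Cyp2c, 8 Cyp3a, 6 Cyp2d, 4 Cyp2a, 4 Cyp2j and 3 Cyp2b genes, and Cyp1a, Cyp2e, Cyp2f, Cyp2r and Cyp2u have 1 each.

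The study compared 5 livers of genotype URI(+/D)Hep with 3 livers of genotype URI(+/+)Hep, the wild-type littermates, all taken 48 hours after removal of part of the liver. In URI(+/D)Hep mice the gene for URI, a prefoldin-family chaperone protein, was deleted in hepatocytes through a serum albumin-creERT2 line, a Cre recombinase that tamoxifen switches on. One allele is thus written as +, the wild type, and the other as D. Mice of both groups were 8 to 9 weeks old and the labels give tamoxifen for 1 week to all of them. The sex of the mice is not among the labels used here, and nothing in them says that livers were pooled. The labels call the cell type epithelial, while RNA came from liver tissue, so that in these bulk samples fewer cells of a type and less RNA per cell cannot be told apart.

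Cytochromes P450 are heme enzymes of the endoplasmic reticulum that insert oxygen into their substrates, with electrons delivered by cytochrome P450 reductase and cytochrome b5. Members of families 1, 2 and 3 clear drugs and toxicants and also hydroxylate steroids, bile acids, retinoids and fatty acids. In mouse liver many of them are made mainly by hepatocytes around the central vein, a few by hepatocytes around the portal vein, and several differ between females and males under the control of growth hormone. The nuclear receptors CAR and PXR and the aryl hydrocarbon receptor induce parts of the family.

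Several libraries stood apart before any comparison. The depth recovered from the values was 3838674 to 4800694 reads per library, and 1 read stood for 0.884 to 1.20 normalized reads. Mki67, a gene of cycling cells, had 469, 333, 268, 586 and 49.5 normalized reads in URI(+/D)Hep livers 1 to 5, against 24.0, 282 and 468 in URI(+/+)Hep livers 1 to 3, so that URI(+/D)Hep 5 and URI(+/+)Hep 1 were low in cycling transcripts. Xist, transcribed from the inactive X of females, had 1217 to 2357 normalized reads in all 5 URI(+/D)Hep livers, against 9.59, 2.95 and 1298 in the URI(+/+)Hep livers. The summed Y-linked genes had 3.54, 786, 1002, 798 and 859 normalized reads in URI(+/D)Hep livers, against 1558, 1312 and 569 in URI(+/+)Hep livers. Xist and Y-linked reads thus occurred together in 4 URI(+/D)Hep libraries and 1 URI(+/+)Hep library. Uri1, the targeted gene, had 328 to 437 normalized reads in URI(+/D)Hep livers and 310 to 468 in URI(+/+)Hep livers, ranges that overlapped. The labels do not say where the deleted part of Uri1 lies relative to these 3′ reads.

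URI(+/D)Hep 5 also held transcripts of intestinal epithelium. A list of 17 such genes, chosen after the values had been seen, summed to 74.0 to 217 normalized reads in URI(+/D)Hep livers 1 to 4 and 5144 in URI(+/D)Hep 5, against 277, 138 and 101 in the URI(+/+)Hep livers. All 17 were highest in URI(+/D)Hep 5, where Muc13 had 1090 normalized reads, Zg16 802, Sis 487 and Cdx2 48.5. Cdx1 and Guca2a were at 0 in the other 7 libraries. The summed hepatocyte markers were alike, at 27516 to 30420 normalized reads in URI(+/D)Hep livers and 27376 to 32279 in URI(+/+)Hep livers over 8 genes. Bile duct markers (6 genes) summed to 233 to 1169 in URI(+/D)Hep livers and 254 to 1659 in URI(+/+)Hep livers, and Krt19 among them was at 0 in URI(+/D)Hep 1. Endothelial markers (6 genes) summed to 2102 to 2426 normalized reads in URI(+/D)Hep livers and 1549 to 1998 in URI(+/+)Hep livers. Kupffer cell markers (6 genes) summed to 4839 to 6085 in URI(+/D)Hep livers and 4459 to 5977 in URI(+/+)Hep livers, stellate cell markers (6 genes) to 1432 to 1718 in URI(+/D)Hep livers and 1475 to 1562 in URI(+/+)Hep livers, and neutrophil markers (6 genes) to 293 to 860 in URI(+/D)Hep livers and 525 to 1072 in URI(+/+)Hep livers. Lymphocyte markers, with 4 of 6 genes in the table, summed to 48.1 to 90.9 in URI(+/D)Hep livers and 7.20 to 50.4 in URI(+/+)Hep livers. The part of these cell types in the P450 results was not tested.

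The question put to the P450 genes was whether they differed between URI(+/D)Hep and URI(+/+)Hep livers. The 43 members together took 0.733, 0.571, 0.486, 0.598 and 0.360% of all reads in URI(+/D)Hep livers 1 to 5, against 0.292, 0.438 and 0.727% in URI(+/+)Hep livers 1 to 3. The groups overlapped, and the 2 livers lowest in Mki67 were also lowest in their own group. URI(+/+)Hep 3 had the highest value of 16 members and URI(+/D)Hep 1 of 14, while URI(+/+)Hep 1 had the lowest value of 24. The members spread widely between livers: the median SD of the log2 values over the 8 livers was 0.85 for the members and 0.31 for all genes tested.

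No P450 gene passed the test of genotype. With limma on log2(value + 1), 0 of 43 members had an adjusted p under 0.05 (Benjamini-Hochberg over all 13704 genes), where 0.0146% of all genes did. At an unadjusted p under 0.05 there were 8 members, 4 higher and 4 lower in URI(+/D)Hep livers, while 17.7% of all genes passed that level, 8.35% as higher and 9.33% as lower. edgeR's quasi-likelihood test on the recovered reads also called 0 of 43 members, and 0.0219% of all genes. DESeq2 on the same reads called 2 of the 36 members to which it gave an adjusted p, Cyp2c39 and Cyp2a12, both lower in URI(+/D)Hep livers, where it called 6.67% of 9171 genes.

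On sizes alone, the members leaned upward with limma in all 8 livers, but not in every subset of livers or setting. The log2 fold change was positive for 30 of 43 members (49.8% of all genes), with a median of 0.43 over the members and -0.0019 over all genes. It was over 1 in size for 11 members, against 2.93% of all genes. Without URI(+/D)Hep 5 and URI(+/+)Hep 1, the 2 livers lowest in Mki67, the members' median was 0.08 with 24 positive. Without URI(+/+)Hep 1 alone it was -0.06 with 17 positive, and without URI(+/+)Hep 3 it was 0.88 with 33 positive. Among the 5 libraries where Xist and Y-linked reads occurred together, with URI(+/+)Hep 3 as the single URI(+/+)Hep liver, the median was -0.49 and 38 members were negative. With all 8 livers kept, the median was 0.0030 with 22 positive when Mki67 was a covariate, -0.13 with 18 positive when the share of Y-linked reads was, 0.17 with 26 positive with edgeR and 0.18 with 26 positive with DESeq2. The lean of the family thus changed with the livers included, the covariates and the tool.

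**Figure D1:**
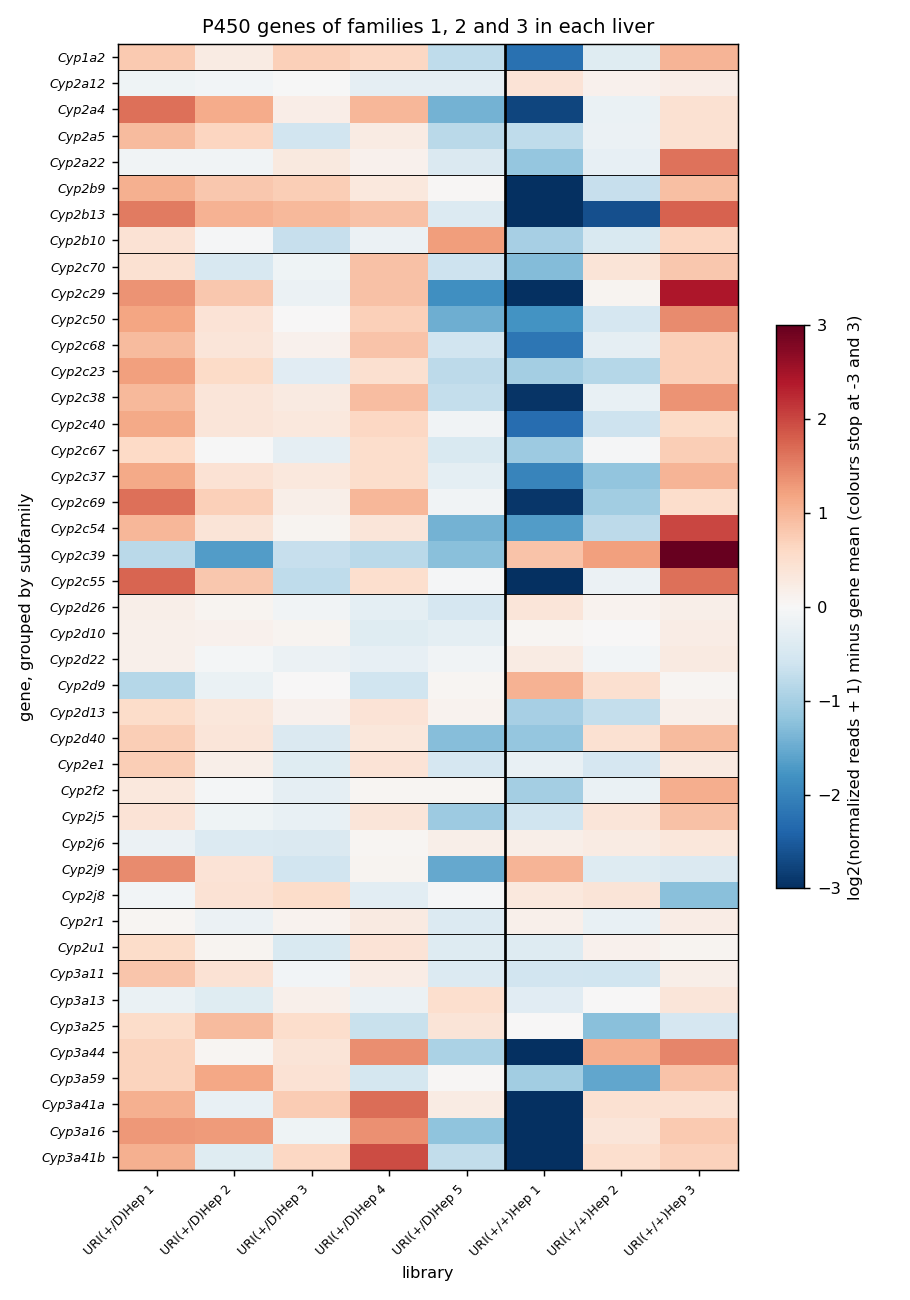
Each row is a P450 gene of families 1, 2 or 3, grouped by subfamily, and each column a liver, URI(+/D)Hep 1 to 5 left of the line and URI(+/+)Hep 1 to 3 right of it. Colour is log2(normalized reads + 1) minus the gene's mean over the 8 livers, cut at -3 and 3; URI(+/+)Hep 1 has the lowest value of 24 genes, URI(+/+)Hep 3 the highest of 16, and Cyp2c39 is low in all 5 URI(+/D)Hep livers.

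Cyp2c39, reported as a retinoic acid hydroxylase, was the member with the smallest p. It had 17.7, 9.26, 19.3, 17.8 and 12.9 normalized reads in URI(+/D)Hep livers, against 58.8, 76.8 and 295 in URI(+/+)Hep livers. All 5 URI(+/D)Hep livers lay below all 3 URI(+/+)Hep livers, and the log2 fold change was -2.81 with an SE of 0.49 (adjusted p = 0.108 with limma). Ranges that did not overlap were found for 2 of 43 members, Cyp2c39 and Cyp2a12, both lower in URI(+/D)Hep livers, and for 13.4% of all genes, 7.3% as lower. Over 26 other settings the log2 fold change of Cyp2c39 ran between -4.28 and -2.10. DESeq2 gave it -3.21 with an adjusted p of 3.4e-06, and limma with Mki67 as a covariate gave -3.03 with an adjusted p of 0.0492. That covariate fit called 2 of 43 members, Cyp2c39 and Cyp2j5, both lower, and 1.23% of all genes. Without URI(+/D)Hep 5 it called no member, with an adjusted p of 0.0742 for Cyp2c39.

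With all 8 livers, the neighbours of Cyp2c39 on chromosome 19, Cyp2c29 and Cyp2c38, did not share its pattern. Cyp2c29, an arachidonic acid epoxygenase, had 1265, 869, 443, 920 and 138 normalized reads in URI(+/D)Hep livers, against 42.0, 528 and 2670 in URI(+/+)Hep livers. Cyp2c38 had 285, 187, 176, 274 and 88.0 normalized reads in URI(+/D)Hep livers, against 18.0, 123.1 and 367 in URI(+/+)Hep livers. Both overlapped between the groups and were lowest in URI(+/+)Hep 1, the liver in which Cyp2c39 stayed above every URI(+/D)Hep value. Their log2 fold changes were 0.55 ± 1.20 for Cyp2c29 and 0.98 ± 0.81 for Cyp2c38 (SE; limma, adjusted p = 0.846 and 0.565). The sign was not stable for Cyp2c29, at -0.57 with edgeR and with DESeq2 and -0.36 with Mki67 as a covariate. Without URI(+/+)Hep 1 the log2 fold changes were -1.05 for Cyp2c29 and -0.19 for Cyp2c38. Among the 5 libraries where Xist and Y-linked reads occurred together they were -2.50 and -1.12, negative as for Cyp2c39. The sign was the other one in 10 of 26 settings for Cyp2c29 and in 3 of 26 for Cyp2c38.

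**Figure D2:**
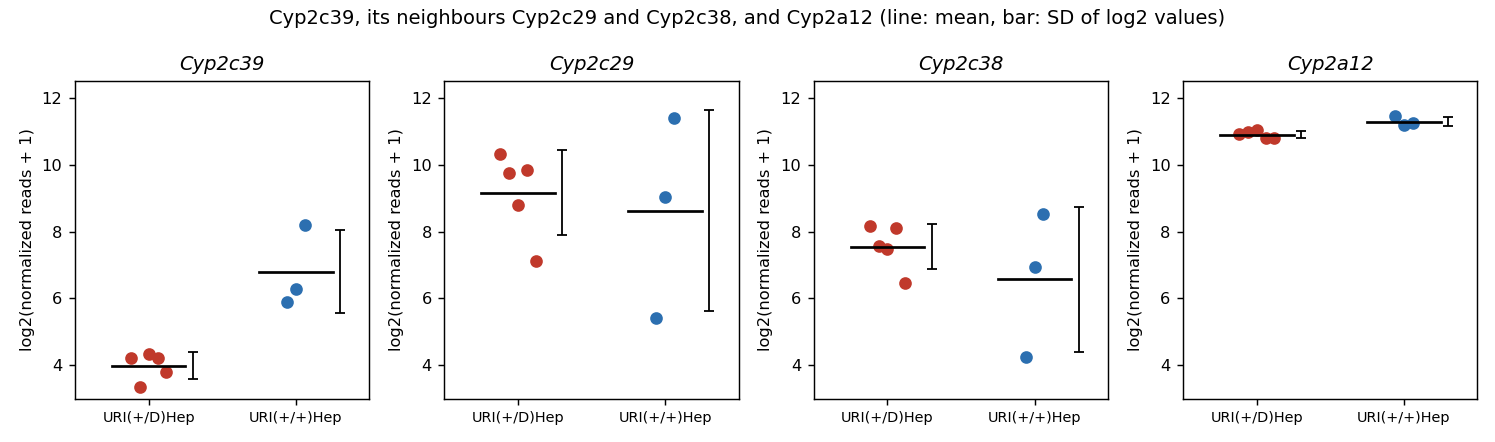
Points are livers, with log2(normalized reads + 1) on the y axis and URI(+/D)Hep left of URI(+/+)Hep; the line is the group mean and the bar the SD of the log2 values (n = 5 and 3). Cyp2c39 separates the groups at 9.26 to 19.3 against 58.8 to 295 normalized reads, Cyp2c29 and Cyp2c38 do not, and Cyp2a12 differs by a small step.

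The 250 bases upstream of the annotated starts of these 3 genes are shown because the genes lie side by side and differed in their pattern. Sequences are from RefSeq, mouse build GRCm38.p6, and are written 5′ to 3′ on the gene's strand. Cyp2c39 is at chr19:39347096-39347345 on the plus strand (the first of 2 windows listed for it), Cyp2c29 at chr19:39286835-39287084 on the plus strand, and Cyp2c38 at chr19:39463076-39463325 on the minus strand. Capitals mark matches on either strand to motifs searched by letters: the nuclear receptor core AGGTCA, the FOXA motif TGTTTAC and the TCF core CTTTGA.
Cyp2c39: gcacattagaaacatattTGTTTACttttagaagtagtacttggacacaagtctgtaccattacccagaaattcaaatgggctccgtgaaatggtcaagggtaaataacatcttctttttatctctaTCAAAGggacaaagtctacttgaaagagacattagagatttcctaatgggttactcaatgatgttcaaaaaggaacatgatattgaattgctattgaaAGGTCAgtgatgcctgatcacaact
Cyp2c29: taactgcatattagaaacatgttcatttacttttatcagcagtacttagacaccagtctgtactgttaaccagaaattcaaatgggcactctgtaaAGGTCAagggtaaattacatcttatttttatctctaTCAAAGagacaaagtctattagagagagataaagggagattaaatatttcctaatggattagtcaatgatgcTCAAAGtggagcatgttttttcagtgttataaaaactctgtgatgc
Cyp2c38: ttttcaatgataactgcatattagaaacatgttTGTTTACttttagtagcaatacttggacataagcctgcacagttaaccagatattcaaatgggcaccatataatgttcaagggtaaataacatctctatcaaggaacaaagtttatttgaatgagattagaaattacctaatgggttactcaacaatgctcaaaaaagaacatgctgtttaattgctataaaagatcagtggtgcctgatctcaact
Cyp2c39 was 85.5% identical to Cyp2c38 over 235 aligned bases and 82.3% identical to Cyp2c29 over 237, and Cyp2c29 was 82.0% identical to Cyp2c38 over 228. The FOXA motif was found at -232 to -226 from the start in Cyp2c39 and at -217 to -211 in Cyp2c38. The core AGGTCA was found at -25 to -20 in Cyp2c39 and at -154 to -149 in Cyp2c29. The last 300 transcript bases of Cyp2c39, where its reads come from, were compared with whole transcripts of other genes. The closest match was 91.4% identical over 302 aligned bases, within a transcript of Cyp2c38.

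Over the family, windows were listed for 38 of 43 members. Searched on both strands, FOXA TGTTTAC was found in the windows of 8 of the 38 members and in 3.17% of all 32851 windows listed. The core AGGTCA was found in 11 members (14.0% of all windows), the TCF core CTTTGA in 10 (13.8%) and the HNF1 core GTTAAT in 6 (6.43%). The aryl hydrocarbon receptor core GCGTG was found in 3 members (28.2% of all windows), the E-box CACGTG in 1 (6.02%) and the STAT motif TTCNNNGAA in 0 (7.02%). A member was counted if any window listed for it held the motif, whereas the shares are of windows, so that counts and shares differ in unit. Neighbouring members share sequence, so these counts are not independent, and a match is a description of letters and not a bound site.

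Cyp2a12, a steroid and bile acid hydroxylase, was the other gene with separated groups, by a far smaller step. It had 1945, 2006, 2094, 1764 and 1765 normalized reads in URI(+/D)Hep livers, against 2797, 2318 and 2407 in URI(+/+)Hep livers. The highest URI(+/D)Hep liver was below the lowest URI(+/+)Hep liver, and the log2 fold change was -0.39 with an SE of 0.11 (adjusted p = 0.135 with limma). DESeq2 gave -0.38 with an adjusted p of 0.0207. Its value changed little with the liver left out, between -0.44 and -0.31. The next lower genes by p did not separate the groups. Cyp2d9, a male-biased testosterone hydroxylase, had 132, 208, 244, 159 and 251 normalized reads in URI(+/D)Hep livers, against 498, 334 and 249 in URI(+/+)Hep livers (log2 fold change -0.84 ± 0.27, limma adjusted p = 0.176). URI(+/+)Hep 3 lay within the URI(+/D)Hep range. Cyp2j6 had 196, 166, 164, 229 and 251 normalized reads in URI(+/D)Hep livers, against 251, 260 and 280 in URI(+/+)Hep livers (log2 fold change -0.41 ± 0.16 SE, limma adjusted p = 0.240). Cyp2d26 averaged 756 ± 142 normalized reads in URI(+/D)Hep livers and 948 ± 87.2 in URI(+/+)Hep livers (log2 fold change -0.34 ± 0.16 SE, limma adjusted p = 0.305).

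The 5 higher genes with the smallest p, Cyp2d13, Cyp2c69, Cyp3a25, Cyp2c40 and Cyp2b13, all had URI(+/+)Hep 3 above the lowest URI(+/D)Hep liver. Cyp2d13 had 276, 239, 207, 252 and 204 normalized reads in URI(+/D)Hep livers, against 93.5, 115 and 208 in URI(+/+)Hep livers (log2 fold change 0.83 ± 0.24 SE, limma adjusted p = 0.145). The GENCODE annotation used here held no protein-coding transcript under this symbol, so its 3′ end was not compared with other genes. Cyp2c69, listed as female-biased, had 220, 116, 79.3, 140 and 64.3 normalized reads in URI(+/D)Hep livers, against 8.39, 33.5 and 101 in URI(+/+)Hep livers (1.83 ± 0.69, adjusted p = 0.221). Cyp3a25 had 1084, 1424, 1069, 464 and 959 normalized reads in URI(+/D)Hep livers, against 738, 308 and 521 in URI(+/+)Hep livers (0.93 ± 0.37, adjusted p = 0.243). Only URI(+/D)Hep 4 kept the ranges of Cyp3a25 from separating. Without URI(+/+)Hep 3, limma called 2 of 43 members, both higher in URI(+/D)Hep livers: Cyp2b13 with a log2 fold change of 3.72 (adjusted p = 0.0298) and Cyp2d13 with 1.16 (adjusted p = 0.0449).

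The sums over genes overlapped between the genotypes in all 11 subfamilies, and no subfamily held a member past the genotype test. Reads came from transcript 3′ ends, so that a value does not grow with transcript length. Cyp2c, the largest subfamily, summed to 7763, 4567, 4219, 7777 and 2668 normalized reads in URI(+/D)Hep livers, against 1478, 4777 and 10244 in URI(+/+)Hep livers. The URI(+/+)Hep livers spanned beyond the URI(+/D)Hep range at both ends, with means of 5399 ± 2280 in URI(+/D)Hep livers and 5500 ± 4428 in URI(+/+)Hep livers (SD, n = 5 and 3). Cyp2c70, which makes the muricholic bile acids of mice, supplied the most Cyp2c reads. It averaged 2636 ± 1202 in URI(+/D)Hep livers and 2756 ± 1645 in URI(+/+)Hep livers (log2 fold change 0.07 ± 0.50 SE, limma adjusted p = 0.959). The log2 fold change took the other sign in 12 of 26 other settings.

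Cyp3a summed to 6374, 5605, 4603, 4537 and 4173 normalized reads in URI(+/D)Hep livers, against 3049, 3131 and 4883 in URI(+/+)Hep livers, and 7 of its 8 genes had positive log2 fold changes. Cyp3a11, the main drug-metabolizing Cyp3a gene and a target of PXR, had 4027, 3075, 2154, 2674 and 1712 normalized reads in URI(+/D)Hep livers, against 1536, 1504 and 2566 in URI(+/+)Hep livers. The ranges overlapped through URI(+/+)Hep 3 (log2 fold change 0.53 ± 0.28 SE, limma adjusted p = 0.364). Cyp2b summed to 3177, 2625, 2491, 1910 and 1576 normalized reads in URI(+/D)Hep livers, against 181, 898 and 2938 in URI(+/+)Hep livers. Its share of P450 reads was 7.51 to 11.99% in URI(+/D)Hep livers, against 1.35, 4.80 and 9.26% in URI(+/+)Hep livers. Most Cyp2b reads were Cyp2b9, whereas Cyp2b10, the classical target of CAR, had 66.3, 47.2, 29.96, 43.1 and 118 normalized reads in URI(+/D)Hep livers, against 24.0, 35.4 and 76.2 in URI(+/+)Hep livers (0.43 ± 0.47, adjusted p = 0.676).

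Cyp2a summed to 3733 ± 1035 normalized reads in URI(+/D)Hep livers and 3552 ± 548 in URI(+/+)Hep livers. Within it Cyp2a5, the coumarin hydroxylase, averaged 388 ± 191 in URI(+/D)Hep livers and 310 ± 127 in URI(+/+)Hep livers. Cyp2d varied less between livers, at 2168 ± 291 normalized reads in URI(+/D)Hep livers and 2554 ± 171 in URI(+/+)Hep livers, and 5 of its 6 genes had negative log2 fold changes. Cyp2j summed to 1767 ± 558 normalized reads in URI(+/D)Hep livers and 2269 ± 909 in URI(+/+)Hep livers, most of it Cyp2j5, an arachidonic acid epoxygenase, at 1523 ± 551 in URI(+/D)Hep livers and 1966 ± 915 in URI(+/+)Hep livers. Cyp2r1, a vitamin D hydroxylase, averaged 121 ± 21.4 normalized reads in URI(+/D)Hep livers and 127 ± 19.4 in URI(+/+)Hep livers. Cyp2u1, a fatty acid hydroxylase, averaged 193 ± 59.9 normalized reads in URI(+/D)Hep livers and 175 ± 32.9 in URI(+/+)Hep livers. Both spread little beside the Cyp2b and Cyp2c genes.

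Pericentral and periportal members were then set side by side. Cyp2e1, which oxidizes ethanol and paracetamol around the central vein, had 2032, 1372, 939, 1606 and 855 normalized reads in URI(+/D)Hep livers, against 1048, 855 and 1471 in URI(+/+)Hep livers. Cyp1a2, a pericentral target of the aryl hydrocarbon receptor that oxidizes caffeine, had 1069, 740, 1016, 954 and 367 normalized reads in URI(+/D)Hep livers, against 131, 483 and 1264 in URI(+/+)Hep livers. Cyp2f2, the periportal member, which oxidizes naphthalene, had 352, 270, 235, 294 and 295 normalized reads in URI(+/D)Hep livers, against 139, 247 and 598 in URI(+/+)Hep livers. All 3 overlapped between the groups. The log2 fold changes were 0.24 ± 0.30 for Cyp2e1, 0.85 ± 0.64 for Cyp1a2 and 0.06 ± 0.38 for Cyp2f2 (SE; limma, adjusted p = 0.719, 0.523 and 0.949), and each took the other sign in some settings.

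The upstream windows of these 3 genes are shown for comparison of the zones, from the same source and with the same capitals. Cyp2e1 is at chr7:140763569-140763818 on the plus strand, Cyp1a2 at chr9:57683656-57683905 on the minus strand and Cyp2f2 at chr7:27119705-27119954 on the plus strand.
Cyp2e1: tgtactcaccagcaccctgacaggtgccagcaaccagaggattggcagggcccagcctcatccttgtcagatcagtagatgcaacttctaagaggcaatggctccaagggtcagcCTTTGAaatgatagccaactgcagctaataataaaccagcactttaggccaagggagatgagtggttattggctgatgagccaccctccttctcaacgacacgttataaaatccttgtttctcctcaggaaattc
Cyp1a2: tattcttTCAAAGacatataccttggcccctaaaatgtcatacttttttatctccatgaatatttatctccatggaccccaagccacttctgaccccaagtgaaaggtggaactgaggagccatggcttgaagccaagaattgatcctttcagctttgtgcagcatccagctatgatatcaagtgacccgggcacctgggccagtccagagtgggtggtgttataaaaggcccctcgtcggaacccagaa
Cyp2f2: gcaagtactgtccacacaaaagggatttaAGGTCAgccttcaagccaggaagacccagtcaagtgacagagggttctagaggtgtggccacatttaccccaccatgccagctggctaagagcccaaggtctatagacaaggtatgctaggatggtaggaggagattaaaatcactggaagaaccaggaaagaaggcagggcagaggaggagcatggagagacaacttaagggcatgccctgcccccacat
The pericentral windows each held the TCF core once, at -135 to -130 in Cyp2e1 and at -243 to -238 in Cyp1a2. The Cyp2f2 window held no match to it in these bases and 1 nuclear receptor core at -221 to -216.

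A zonal index, the mean log2 of Cyp2e1 and Cyp1a2 minus the log2 of Cyp2f2, was 2.06, 1.89, 2.05, 2.07 and 0.92 in URI(+/D)Hep livers, against 1.41, 1.38 and 1.19 in URI(+/+)Hep livers. URI(+/D)Hep livers 1 to 4 lay above every URI(+/+)Hep liver and URI(+/D)Hep 5, the liver with intestinal transcripts and low Mki67, below them. The means were 1.80 ± 0.49 in URI(+/D)Hep livers and 1.32 ± 0.12 in URI(+/+)Hep livers (SD), a difference of 0.48, near the pooled SD of 0.41. Leaving out each liver in turn kept the difference between 0.41 and 0.70. The pericentral pair did not keep a fixed ratio: Cyp1a2 minus Cyp2e1 on the log2 scale was -1.22 to 0.11 in URI(+/D)Hep livers, against -2.99, -0.82 and -0.22 in URI(+/+)Hep livers, the lowest in URI(+/+)Hep 1.

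**Figure D3:**
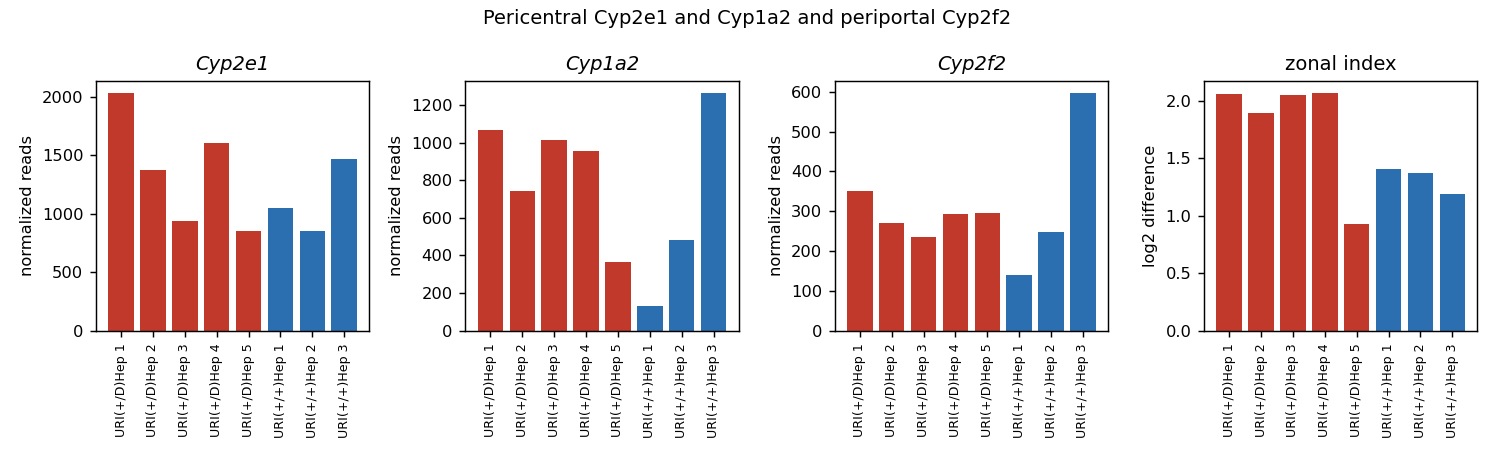
Bars give normalized reads of Cyp2e1, Cyp1a2 and Cyp2f2 in each liver (URI(+/D)Hep red, URI(+/+)Hep blue), and in the last panel the zonal index, the mean log2 of Cyp2e1 and Cyp1a2 minus the log2 of Cyp2f2. The index is 1.89 to 2.07 in URI(+/D)Hep livers 1 to 4 and 0.92 in liver 5, against 1.19 to 1.41 in the URI(+/+)Hep livers.

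Other zonal genes did not pass the genotype test either. Of 11 other pericentral genes tested, 0 passed the genotype test, 9 had positive log2 fold changes and the median was 0.74. Among them Rnf43 had a log2 fold change of 0.98 (adjusted p = 0.203), Axin2 1.47 (adjusted p = 0.228) and Glul, the glutamine synthetase of the last pericentral cells, 0.74 (limma, adjusted p = 0.378). Of 12 other periportal genes, 0 passed, 8 were positive and the median was 0.22. Cps1, the first enzyme of the urea cycle, had 2709, 3682, 3483, 2800 and 3198 normalized reads in URI(+/D)Hep livers, against 1077, 1802 and 1880 in URI(+/+)Hep livers, groups that did not overlap (1.03, adjusted p = 0.108). Etnppl had a log2 fold change of 1.74 (limma, adjusted p = 0.123) and Hsd17b13 of -0.57 (limma, adjusted p = 0.127). Both also had groups that did not overlap, as 13.4% of all genes did. With Mki67, in the fit of all 8 livers only, 7 of the 11 pericentral genes rose and 0 fell. Of the 12 periportal genes 2 rose and 2 fell, where 10.5% of all genes rose and 5.17% fell. Positive log2 fold changes made up 49.8% of all genes, and the difference between the zones was not tested.

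Transcripts of many P450 genes were higher in livers with more Mki67. In a limma fit with genotype and log2(Mki67 + 1), 23 of 43 members passed an adjusted p of 0.05 for the slope, where 15.6% of all genes did. Of these, 22 rose with Mki67 (10.5% of all genes) and 1, Cyp2d9, fell (5.17% of all genes). The slope had a positive sign for 36 of 43 members and 48.9% of all genes. The median slope was 0.36 log2 units per log2 unit of Mki67 over the members and -0.0032 over all genes. The counts rest largely on URI(+/+)Hep 1 and URI(+/D)Hep 5, whose Mki67 of at most 49.5 normalized reads was separated from the other 6 livers, at 268 or more, by 2.41 log2 units.

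Most Cyp2c genes rose with Mki67. In that subfamily 12 of 13 genes passed as positive, the exception being Cyp2c39 (0.27 ± 0.13 SE, limma adjusted p = 0.179). Cyp2c29 had the steepest slope of all members, 1.11 ± 0.12 (adjusted p = 0.00030). Cyp2c68 had a slope of 0.54 ± 0.06 (adjusted p = 0.00040). In Cyp3a 4 of 8 genes rose, among them Cyp3a44 at 1.03 ± 0.14 (adjusted p = 0.0017). Cyp3a44 had 227, 149, 188, 376 and 73.2 normalized reads in URI(+/D)Hep livers, against 7.20, 302 and 395 in URI(+/+)Hep livers, with the lowest value in each group in the liver lowest in Mki67. Cyp2a4, a steroid hydroxylase, rose at 0.78 ± 0.07 (adjusted p = 6.9e-05). Cyp2j5 rose at 0.37 ± 0.04 (adjusted p = 0.00028), Cyp2d40 at 0.51 ± 0.06 (adjusted p = 0.00049) and Cyp1a2 at 0.58 ± 0.08 (limma, adjusted p = 0.0015).

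Cyp2d9 fell at -0.21 ± 0.05 (adjusted p = 0.0248), a call lost without URI(+/+)Hep 1, without URI(+/+)Hep 3 and without URI(+/D)Hep 4, where the adjusted p was 0.154, 0.105 and 0.0564, and also lost without both livers lowest in Mki67 (0.0728), with limma without the trend (0.0550) and with array quality weights (0.0561). Cyp2e1 (0.16 ± 0.08, adjusted p = 0.189) and Cyp2f2 (0.24 ± 0.09, adjusted p = 0.101) did not pass. Cyp3a25 at -0.16 ± 0.10, Cyp2j8 at -0.15 ± 0.13, Cyp2a12 at -0.02 ± 0.03 and Cyp2j6 at -0.02 ± 0.05 were the other negative slopes with the smallest p and did not pass either (adjusted p = 0.335, 0.452, 0.674 and 0.815). In the fit of all 8 livers, genes with a slope past the test and genes without one thus occurred within the same subfamilies.

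**Figure D4:**
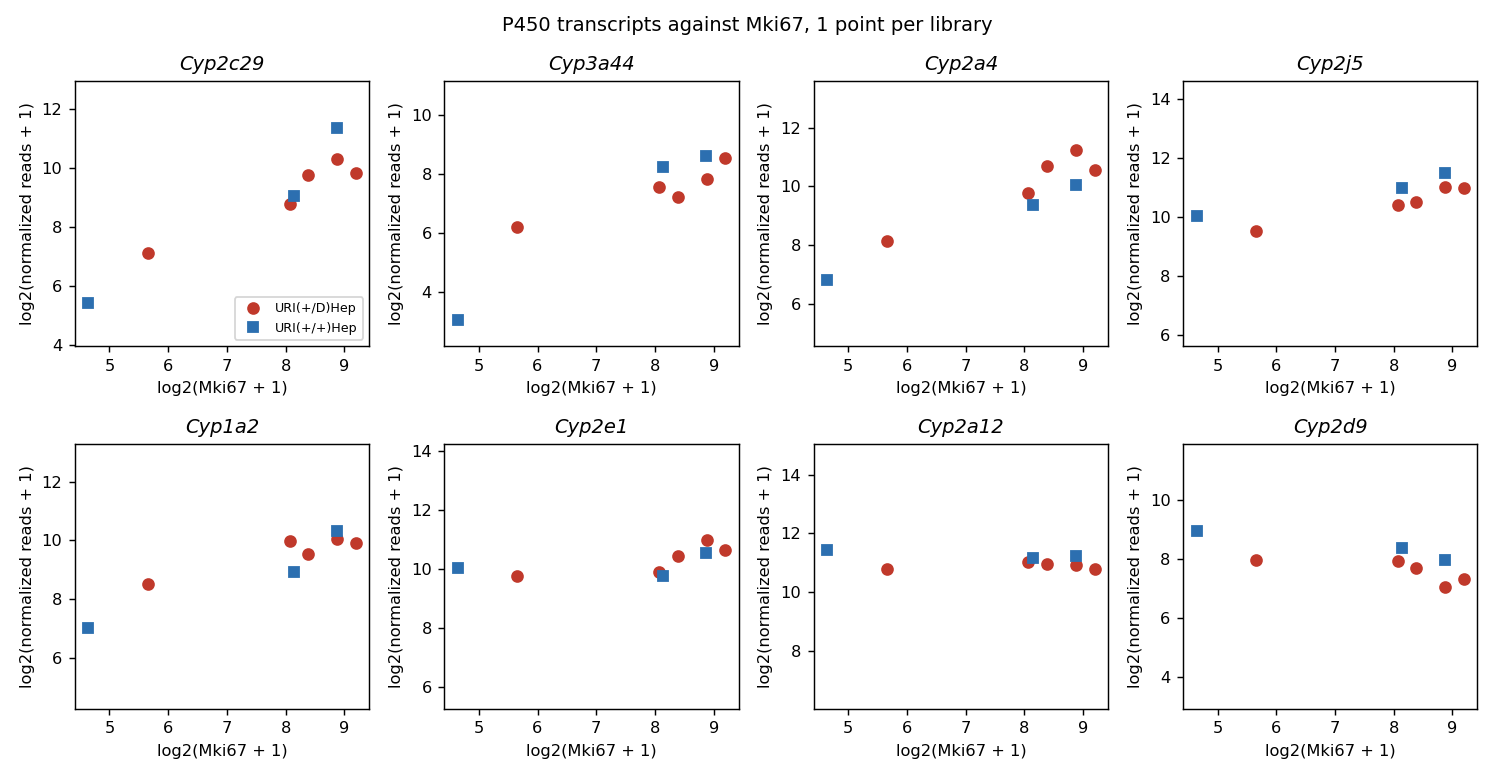
Each point is a liver, with log2(Mki67 + 1) on the x axis and log2(normalized reads + 1) of a P450 gene on the y axis; red circles are URI(+/D)Hep and blue squares URI(+/+)Hep, and all y axes span the same range. Cyp2c29, Cyp3a44, Cyp2a4, Cyp2j5 and Cyp1a2 rise along Mki67, Cyp2e1 and Cyp2a12 do not pass the test, and Cyp2d9 falls; the 2 points at the left are URI(+/+)Hep 1 and URI(+/D)Hep 5.

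Leaving both of those livers out lost most calls. Without URI(+/+)Hep 1, 10 of 43 members passed, all positive (6.16% of all genes in either direction, 4.49% as positive and 1.67% as negative). Without URI(+/D)Hep 5, 23 passed, 22 positive and 1 negative (16.3% of all genes in either direction, 10.6% as positive and 5.67% as negative). Without both, 5 passed, all positive: Cyp2j5, Cyp2e1, Cyp2c67, Cyp2c68 and Cyp2c70 (4.04% of all genes in either direction, 2.16% as positive and 1.88% as negative). The 3′ ends of Cyp2c67 and Cyp2c68 were each 98.0% identical to transcript sequence of Cyp2c40 over 300 bases, so these genes may not be separate measurements. In that fit of 6 livers 36 of 43 members had a positive slope (54.4% of all genes), 34 of them positive in 8 livers as well, and the median slope was 0.74 over the members and 0.03 over all genes. Cyp2j6 and Cyp2d22 turned positive, and Cyp2d10 and Cyp2d26 turned negative. Over the 18 other settings Cyp2e1 passed only there, with a slope of 0.84 (adjusted p = 0.0499), against 0.16 in all 8 livers.

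Within those 6 livers, with Mki67 at 268 to 586 normalized reads, Pearson's r with log2 Mki67 was positive for 36 of 43 members (53.8% of all genes), with a median of 0.61 over the members and 0.07 over all genes. In exact permutation tests over all 720 pairings, whose smallest possible p is 0.0014, 3 members had an unadjusted p under 0.05 (11.6% of all genes). None of the 13704 genes passed after Benjamini-Hochberg adjustment, the members included. The 3 were Cyp2c68 (r = 0.90, exact permutation p = 0.0292; Spearman's rho = 0.89, exact permutation p = 0.0333), Cyp2e1 (r = 0.85, p = 0.0361; rho = 0.89, p = 0.0333) and Cyp2c67 (r = 0.90, p = 0.0444; rho = 0.77, p = 0.103). All of these are two-sided, and the adjusted p of r was 0.409 for Cyp2c68 and Cyp2e1 and 0.413 for Cyp2c67. With the 2 livers farthest from the median of Mki67 left out of these 6, r was 0.95 for Cyp2c68, 0.88 for Cyp2e1 and 0.96 for Cyp2c67. So few livers leave r unstable, and no test was run on it. Other members reached such values too, among them Cyp2b10 at 0.98 and Cyp1a2 at 0.97. For Cyp2d26 r was -0.19 in the 6 livers and 0.89 without those 2.

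P450 genes listed as sex-biased in mouse liver were examined because Xist and Y-linked reads differed between the groups. Of 12 genes listed as female-biased 11 were tested, and 10 had positive log2 fold changes, with a median of 1.35, against 0.22 over the other 32 members. None of the 11 passed the genotype test with limma. Cyp2b13 had 252, 174, 167, 157 and 63.3 normalized reads in URI(+/D)Hep livers, against 8.39, 12.8 and 293 in URI(+/+)Hep livers (log2 fold change 2.16 ± 1.00 SE, limma adjusted p = 0.301). Cyp2b9 had 2859, 2404, 2294, 1710 and 1395 normalized reads in URI(+/D)Hep livers, against 149, 850 and 2569 in URI(+/+)Hep livers (1.58 ± 0.74, adjusted p = 0.302). URI(+/+)Hep livers 1 and 2, the libraries with little Xist, were the low ones for both genes, and URI(+/+)Hep 3, with Xist, lay within or above the URI(+/D)Hep values.

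URI(+/+)Hep 1 was below every URI(+/D)Hep liver for all 11 female-biased genes, and URI(+/+)Hep 2 for 4 of them, Cyp2b13, Cyp2b9, Cyp2c40 and Cyp2c69, so that for the other 7 a liver with little Xist was not below the URI(+/D)Hep range. Cyp2a4 had 2404, 1646, 871, 1519 and 284 normalized reads in URI(+/D)Hep livers, against 112, 660 and 1048 in URI(+/+)Hep livers (1.34 ± 0.82, adjusted p = 0.424). Cyp2c40 had 340, 198, 194, 238 and 143 normalized reads in URI(+/D)Hep livers, against 31.2, 100 and 232 in URI(+/+)Hep livers (1.24 ± 0.55, limma adjusted p = 0.282). Cyp3a41a had 44.2, 17.6, 35.8, 68.4 and 24.7 normalized reads in URI(+/D)Hep livers, against 0, 28.6 and 29.0 in URI(+/+)Hep livers. Here URI(+/+)Hep 2 lay within the URI(+/D)Hep range, as it did for Cyp3a44. Cyp3a16 averaged 23.3 ± 13.9 in URI(+/D)Hep livers and 13.1 ± 11.7 normalized reads in URI(+/+)Hep livers, and Cyp3a41b 22.5 ± 17.6 in URI(+/D)Hep livers and 12.7 ± 11.1 in URI(+/+)Hep livers. Both were at 0 in URI(+/+)Hep 1, where 3 reads correspond to 3.60 normalized reads. Cyp2a22 was the 1 listed gene with a negative log2 fold change, -0.13 ± 0.52 (limma, adjusted p = 0.924), and was highest in URI(+/+)Hep 3 at 272 normalized reads.

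Of the 11 female-biased genes 8 passed the limma slope test on Mki67, all positive, as did 15 of the other 32 members and 15.6% of all genes. Without URI(+/+)Hep 1 the 8 were reduced to Cyp3a16, Cyp3a44 and Cyp2a4, and without both livers lowest in Mki67 none of the 11 passed. No gene was tested against Xist. Among the 5 libraries where Xist and Y-linked reads occurred together 1 of the 11 had a positive log2 fold change and 10 a negative one, with a median of -0.43. Without URI(+/+)Hep 3 all 11 were positive with a median of 2.12. Without URI(+/+)Hep 1, low in both Xist and Mki67, 7 were positive and 4 negative, with a median of 0.25. Without both livers lowest in Mki67, 8 were positive and 3 negative, with a median of 0.38. With the share of Y-linked reads as a covariate in all 8 libraries 9 of the 11 were positive, with a median of 0.55, and no member was called. Of the genes listed as male-biased, Cyp2d9 is given above and was highest in URI(+/+)Hep livers 1 and 2. The log2 fold change of Cyp2u1 was 0.11 with an SE of 0.26 (adjusted p = 0.865 with limma). Regulators of sex-biased liver genes were read in the same livers: 0 of 6 passed the genotype test. Cux2, a female-biased repressor, had 403, 423, 518, 281 and 268 normalized reads in URI(+/D)Hep livers, against 193, 103 and 203 in URI(+/+)Hep livers (1.20, adjusted p = 0.115).

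**Figure D5:**
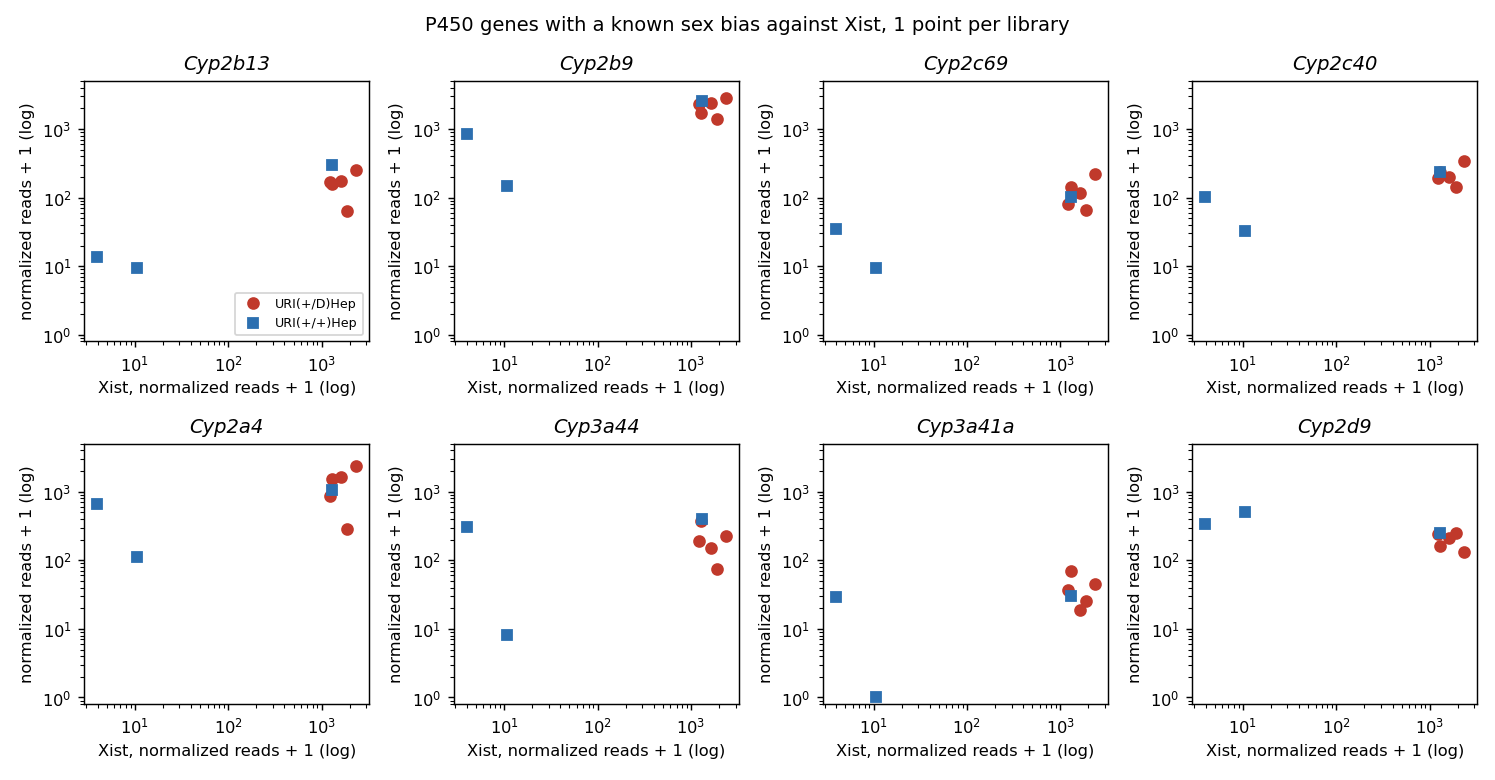
Each point is a liver, with Xist (normalized reads + 1) on a log x axis and a P450 gene (normalized reads + 1) on a log y axis; red circles are URI(+/D)Hep and blue squares URI(+/+)Hep. URI(+/+)Hep 1 and 2 lie at the left with little Xist; Cyp2b13 has 8.39 and 12.8 normalized reads there against 63.3 to 252 in URI(+/D)Hep livers, whereas Cyp3a44 and Cyp3a41a in URI(+/+)Hep 2 lie within the URI(+/D)Hep range.

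The partners and regulators of the P450 enzymes held no gene past the genotype test. Of 5 electron donors, 0 passed the genotype test. Por, the reductase that feeds electrons to all of these enzymes, had 2498, 3281, 3057, 2127 and 3327 normalized reads in URI(+/D)Hep livers, against 2870, 2083 and 1948 in URI(+/+)Hep livers (log2 fold change 0.31, limma adjusted p = 0.412). In the limma fit of all 8 livers Por fell with Mki67 at -0.14 (adjusted p = 0.0439) and Cyb5b rose at 0.12 (adjusted p = 0.0254). In that fit Por thus ran against most P450 genes. Slopes of the partners, regulators and targets are given for that fit only, in which the member counts rested largely on URI(+/+)Hep 1 and URI(+/D)Hep 5. Of 8 heme synthesis genes 0 passed for genotype, with Alas1, the rate-limiting enzyme, at a log2 fold change of 0.39 (adjusted p = 0.219), and Alad alone passed for the slope, at 0.24 (adjusted p = 0.0063).

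Of 12 regulators tested of 14 listed, 0 passed for genotype. Nr1i3 (CAR) had a log2 fold change of 0.19 and Nr1i2 (PXR) of -0.07 (limma, adjusted p = 0.759 and 0.898); Rxra, their partner, had -0.39 (adjusted p = 0.136) and Ppara 0.49 (adjusted p = 0.140). Cebpa rose with Mki67 at 0.19 (adjusted p = 0.0346), the 1 regulator past that test. Of 7 other targets of CAR and PXR tested, 0 passed for genotype and Abcc3 fell with Mki67 at -0.20 (adjusted p = 0.0325). Of 2 other targets of the aryl hydrocarbon receptor tested, 0 passed either test. Of 10 cycling genes, Mki67 itself among them, 10 rose with Mki67 and 0 passed for genotype.

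The symbols that failed the filter had few reads in these livers. Cyp1a1, the inducible target of the aryl hydrocarbon receptor, had 0 to 6.56 normalized reads in URI(+/D)Hep livers and 1.20 to 4.29 in URI(+/+)Hep livers. Cyp2g1 had at most 8.84 and Cyp1b1 at most 8.39 normalized reads in any liver. The exceptions were 3 of the 4 genes listed as known from gut epithelium, which stood out in URI(+/D)Hep 5, the liver with intestinal transcripts: Cyp2c66 at 42.5, Cyp2c65 at 23.7 and Cyp2s1 at 10.9 normalized reads, against at most 1.93 in any other liver. The fourth, Cyp2c55, a member that met the filter, did not: it had 43.3, 22.2, 6.77, 17.8 and 11.9 normalized reads in URI(+/D)Hep livers, against 0, 10.8 and 40.8 in URI(+/+)Hep livers. The pseudogene symbols, left out by name, were not all low. Cyp2d38-ps had 418 to 908 normalized reads in URI(+/D)Hep livers and 164 to 836 in URI(+/+)Hep livers. Cyp2d36-ps had 159 to 416 in URI(+/D)Hep livers and 70.8 to 367 in URI(+/+)Hep livers, whereas Cyp2d41-ps had at most 4.42 in any liver. Some members may not be read apart from a close copy. The last 300 bases of 11 members were at least 95% identical over at least 200 bases to part of another gene's transcript. The levels of Cyp3a41a and Cyp3a41b, of Cyp2c40, Cyp2c67, Cyp2c68 and Cyp2c69, and of Cyp2a4 and Cyp2a5 are thus uncertain. So are those of Cyp3a44, Cyp2d10 and Cyp2d22.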

How the data were processed

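RNA of 8 livers was sequenced from transcript 3′ ends after oligo-dT priming, single read, sense strand kept, with a 6 nt molecular identifier, per the labels' protocols. Tools named in the submitters' processing notes are bcl2fastq, featureCounts and DESeq2, with the build GRCm39. No source used here gives the aligner, the annotation or the use of the identifiers. The authors deposited a signal of read counts divided by a size factor per library ("normalized reads"). In units of each library's lowest nonzero value, 100% of values were whole (tolerance 1e-06). In URI(+/D)Hep 5 that value was 0.989, close to 1, so count tests were repeated on the other 7 libraries. The smallest row total was 10 reads. A count of 3 reads equals 2.65 to 3.60 normalized reads, and lower values are uncertain.

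Genes reaching 10 normalized reads in 3 or more libraries (13704) were tested on log2(value + 1) with limma 3.58.1 (trend, R 4.3.3) and Benjamini-Hochberg adjustment over all of them, called under 0.05. Fold changes are URI(+/D)Hep over URI(+/+)Hep on that scale, which understates low genes. The slope fit adds log2(Mki67 + 1). Alternatives were edgeR 4.0.16 and DESeq2 1.42.0 on recovered reads and the settings named in the closing section. The fits were tested on simulated data. No label says that replicates are separate litters or days, so p-values measure the spread between these samples. Libraries correlated at 0.880 to 0.982 and none were identical.

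Members and lists were chosen with earlier results of these data known. Full statistics are given for Cyp2e1, Cyp1a2 and Cyp2f2, the member with the highest mean of each subfamily, 5 members per direction by smallest p for genotype and for slope, and sex-biased members. Other genes come from the pathway lists, and a few members were named after their values were seen. Promoters are RefSeq GRCm38.p6. The 3′ ends are GENCODE GRCm38, compared with whole transcripts by blastn 2.17.0+. Both were used for sequence and neighbours only. Of 43 members 42 matched the name table.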

Additional observations from a re-analysis of the deposited data

Results flagged for a closer look

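Within the 5 URI(+/D)Hep livers, the gap between an extreme liver and the next was large relative to the range for 3 of 46 P450 symbols examined, all below the filter and all in URI(+/D)Hep 5. Cyp2c66 had 42.5 normalized reads in that liver, against 0 to 0.967 in the other URI(+/D)Hep livers. Cyp2c65 had 23.7, against 0 to 0.967, and Cyp2s1 had 10.9, against 0.926 to 1.93. No member that met the filter had such a gap. Of 26 summary values 4 had one. The zonal index was 0.92 in URI(+/D)Hep 5, against 1.89 to 2.07 in the other URI(+/D)Hep livers. The summed bile duct markers were 1169 normalized reads in URI(+/D)Hep 5, against 233 to 375, and the 17 intestinal epithelium genes 5144, against 74.0 to 217; Epcam, which is on both lists, had 525 there. The Y-linked sum was 3.54 normalized reads in URI(+/D)Hep 1, against 786 to 1002 in the other URI(+/D)Hep livers. Chance gives such a gap in about 1 of 20 groups. That rate is no yardstick for the 3 symbols, which reached 10 normalized reads in URI(+/D)Hep 5 only. Nor is it one for the intestinal genes, which were chosen after the values had been seen. The part of intestinal tissue in the P450 values and in the zonal index of URI(+/D)Hep 5 was not tested.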

How the results depend on the processing

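The count of P450 members called for genotype was 0 with limma. It was 2 with Mki67 as a covariate, 2 with DESeq2 on recovered reads, 1 with DESeq2 on the other 7 libraries, and 0 to 2 when each liver was left out in turn. The members' median log2 fold change was -0.49 in the 5 libraries where Xist and Y-linked reads occurred together, and -0.059 to 0.88 with each liver left out. The count called for the slope was 5 without both livers lowest in Mki67 and 10 to 27 with each liver left out. In those 5 libraries, log2 fold changes turned to -0.081 for Cyp2c69, -0.28 for Cyp2c40, -1.16 for Cyp2b13, -0.35 for Cyp2e1, -0.82 for Cyp1a2 and -1.13 for Cyp2f2. With the share of Y-linked reads as covariate they turned to -0.13 for Cyp2e1 and -0.41 for Cyp2f2. Leaving out 1 liver at a time gave -0.011 to 1.62 for Cyp1a2 and -0.42 to 0.63 for Cyp2f2. Cyp2f2 also turned to -0.018 with array quality weights, -0.13 with the Mki67 covariate, -0.52 with that covariate in 7 libraries, -0.43 without both livers lowest in Mki67, -0.18 with edgeR and with DESeq2, and -0.19 and -0.18 with them in 7 libraries. None of these passed the threshold. The slope of Cyp2a12 turned to 0.0044 with quantile normalization, 0.00063 with array quality weights and -0.069 to 0.026 with each liver left out, and that of Cyp2j6 to 0.36 without both livers and -0.079 to 0.058 with each left out. The cause was not tested.

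TMM recentring, quantile normalization, pseudocounts of 0.5 or 8, a minimum mean of 50, no filter and limma without the trend called 0 members for genotype. TMM and quantile scaling left the median of all genes within 0.01 of 0. Same-numbered livers did not deviate together (correlations -0.40, -0.04 and -0.27). So few pairs cannot settle whether the numbers mark a pairing. A replicate block called 0 members. Members under about 20 normalized reads, such as Cyp2c39 in URI(+/D)Hep livers, are limited by depth.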
